A study of Mus musculus with 6 samples.

Results

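The genes described here carry out peptide presentation on MHC class I. They are the heavy chains H2-K1 and H2-D1, the light chain B2m, the peptide transporter subunits Tap1 and Tap2, the loading factor Tapbp (tapasin), the immunoproteasome subunits Psmb8, Psmb9 and Psmb10, and the transcriptional activator Nlrc5. They were taken by symbol, 10 genes held by 11 of the 37991 Ensembl identifiers counted. The rule used no measured value, but the members were chosen with earlier results of these data known. RNA-seq was performed on pre-B cells sorted from C57BL/6 bone marrow, which the labels describe as high in B220 and low in IgM and IgD at every stage, whereas the methods give B220+ IgM- IgD- for the malignant cells. There were 2 libraries from wild-type mice (wild type genotype, 4 to 6 weeks), 2 from premalignant EμMyc/+ mice of the same age, and 2 from malignant EμMyc/+ mice (10 to 20 weeks), which had developed spontaneous lymphoma. In both EμMyc/+ stages the transgene was heterozygous and Myc was driven by the Eμ immunoglobulin heavy-chain enhancer, which acts in the B lineage. Wild-type and premalignant mice were female littermates, while malignant mice were of both sexes and older, so that sex, age and a possible difference in the gate cannot be told apart from the malignant stage. The study took individual animals as biological replicates.

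MHC class I molecules display peptides cut from the proteins of a cell, so that cytotoxic T cells can inspect it. The proteasome cuts the peptides, the TAP transporter carries them into the endoplasmic reticulum, tapasin and its partners load them, and the heavy chain travels to the surface with B2m. In immunoproteasomes, the inducible catalytic subunits Psmb8, Psmb9 and Psmb10 replace the constitutive subunits Psmb5, Psmb6 and Psmb7. Nlrc5 acts as a co-activator at class I promoters, where it works with factors bound to an array of short boxes, and interferons raise many genes of the pathway, in part through Irf1.

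Levels are given as CPM, the counts scaled to the TMM-normalised size of each library, and, where genes are compared with each other, as RPKM, which is CPM per kilobase of exon. Total counts were 51065861 to 53453055 in the 3 replicate 1 libraries and 30031100 to 34543633 in the 3 replicate 2 libraries, so depth followed the replicate number and not the stage. Myc, the gene of the transgene, was at 33.8 and 41.4 CPM in wild type, 1164 and 1155 CPM in premalignant cells and 1732 and 1578 CPM in malignant cells. The 10 markers of the B lineage were detected in every library, with a summed level of 7161 and 8097 CPM in wild type, 3584 and 3555 CPM in premalignant cells and 3320 and 2968 CPM in malignant cells. Markers listed for cell types other than pre-B cells were detected as well. The sort selected on B220, IgM and IgD, so other cells that meet this gate were not held back. The 7 granulocyte markers summed to 1027 and 2487 CPM in wild type, 329 and 329 CPM in premalignant cells and 78.2 and 129 CPM in malignant cells, and the 8 markers of monocytes, macrophages and dendritic cells summed to 469 and 498, 104 and 104, and 19.5 and 74.6 CPM. The 7 T and NK markers ranged from 1.03 to 129 CPM in sum, the 7 erythroid markers from 68.4 to 1349 CPM and the 4 markers of mature B and plasma cells from 2.84 to 79.4 CPM, each with its highest value in a wild-type library. In wild type, Siglech gave 204 and 138 CPM of the monocyte, macrophage and dendritic sums. Sdc1 gave 69.5 and 65 CPM, most of the mature B and plasma sums. Which cells these transcripts came from was not tested. Against wild type, 26 of the 33 markers listed for other cells passed as lower in the premalignant stage and 27 in the malignant stage. None passed as higher. Of the 10 B-lineage markers, 9 passed as lower in each of these comparisons and none as higher. Over all genes tested, 20.3% passed as lower in the premalignant stage and 24.3% in the malignant stage. A single T or NK gene was at 0 counts, in premalignant replicate 2. Markers listed for other cells and for the B lineage move with the stages in the same direction as the class I genes that fell. Their part in the results was not tested.

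In premalignant cells, 7 of the 9 measured class I presentation genes were called lower than in wild type, and none was called higher. A gene was called where edgeR's quasi-likelihood test gave an FDR of at most 0.1 and the absolute log2 fold change was at least 0.5. In this comparison, 20.3% of the 16683 genes tested were called lower and 19% higher. Both heavy chains, B2m, Tap1, Tap2, Tapbp and Nlrc5 were called lower, while the immunoproteasome subunits Psmb8 and Psmb10 did not pass the test. The median log2 fold change was -0.91 over the 9 genes and -0.08 over all genes tested. In malignant cells, 6 of the 9 were called lower than wild type and none higher, against 24.3% of all genes lower and 24.9% higher. The median there was -0.83 over the 9 genes and -0.02 over all genes. Between malignant and premalignant cells none of the 9 was called by edgeR, against 2.45% of all genes called lower and 3.73% called higher. At an unadjusted p under 0.05, 3 of the 9 were higher in malignant cells, and DESeq2 also called 3 higher. Both criteria also passed more of all genes than the edgeR call did, so the shares just given are not their background. Upper-quartile scaling changed the split of all calls in that comparison from 623 higher and 408 lower to 487 and 492. In bulk RNA, fewer cells that express a gene and less of its RNA per cell cannot be told apart.

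**Figure D1:**
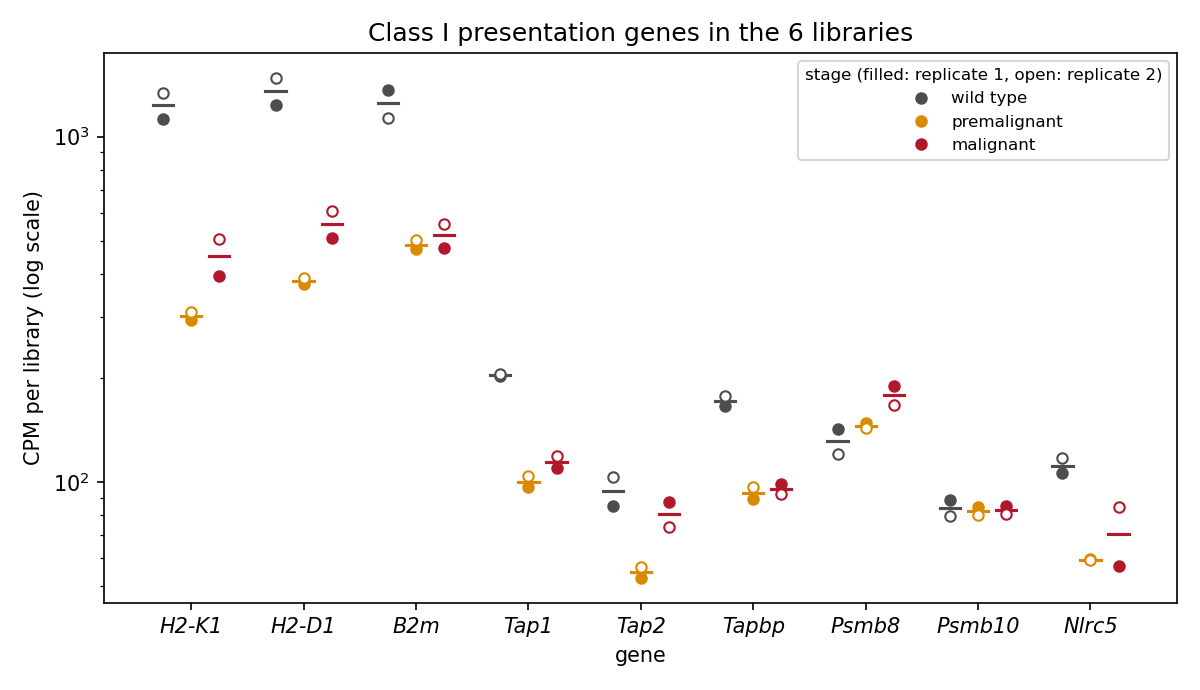
CPM of the 9 measured class I presentation genes in each of the 6 libraries, on a log axis, with filled points for replicate 1, open points for replicate 2 and a bar at the mean of each stage. Both wild-type points lie above both premalignant points for every gene except Psmb8, where they lie below (142 and 120 CPM against 148 and 143 CPM), and Psmb10, where the stages overlap. For such a separation of 2 libraries from 2, an exact permutation test gives a two-sided p of 0.333. The share of all genes so separated was not computed.

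The genes take up a measurable share of the counted RNA. All 10 together held 0.505% and 0.537% of the counts in the wild-type libraries, 0.164% and 0.167% in the premalignant libraries and 0.181% and 0.213% in the malignant libraries. The widest exact 95% binomial interval, that of wild type replicate 2, ran from 0.534% to 0.5391%, and such intervals cover counting error only. H2-K1, H2-D1 and B2m made up most of it, with 0.416% and 0.446% in wild type, 0.112% and 0.115% in premalignant cells and 0.124% and 0.155% in malignant cells. By RPKM, B2m was the most abundant of the 9 in each stage, at 1453 ± 191 (SD, n = 2) in wild type, 565 ± 25.2 in premalignant cells and 602 ± 67.6 in malignant cells. H2-D1 and H2-K1 came next, with H2-D1 the higher in every library, although their ranges overlapped in wild type (477 and 571 RPKM against 432 and 513 RPKM). Psmb10 followed in every stage, and Nlrc5 was the lowest of the 9, at 15.3, 8.15 and 9.71 RPKM in the mean. The order below Psmb10 changed with the stage. In wild type it was Tapbp, Psmb8, Tap1 and Tap2, with Tapbp and Psmb8 overlapping, and in premalignant cells Psmb8 came before Tapbp without overlap. In malignant cells Psmb10 and Psmb8 overlapped at 65.3 and 65 RPKM, as did Tap2 and Tap1 at 21.3 and 20.9 RPKM.

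The heavy chains H2-K1 and H2-D1, which bind the peptide, showed the largest falls of the 9. H2-K1 (ENSMUSG00000061232, chromosome 17, 34132962 to 34137278 on the minus strand of NCBIM37/mm9) was at 1125 and 1339 CPM in wild type, 295 and 310 CPM in premalignant cells and 395 and 506 CPM in malignant cells. The 3 stages did not overlap, with wild type highest and premalignant lowest. Against wild type, its level was 4.08-fold lower in the premalignant stage (log2 fold change -2.03 ± 0.19 SE, adjusted p = 0.00211, edgeR) and 2.73-fold lower in the malignant stage (-1.45 ± 0.18, adjusted p = 0.00217, edgeR). H2-D1 (ENSMUSG00000073411, chromosome 17, 35399675 to 35404444, plus strand) was at 1234 and 1478, 375 and 390, and 507 and 607 CPM in the same order of stages. Its 3 stages were also apart and in the same order as those of H2-K1. Its log2 fold change was -1.83 ± 0.17 in premalignant vs. wild type (adjusted p = 0.0022, edgeR) and -1.28 ± 0.17 in malignant vs. wild type (adjusted p = 0.00254, edgeR). The ratio of H2-K1 to H2-D1 by RPKM was 0.905 and 0.899 in wild type, 0.781 and 0.788 in premalignant cells and 0.773 and 0.827 in malignant cells. These are close paralogs, and of the 50-base windows within their exons 83% in H2-K1 and 85.4% in H2-D1 occur once in the genome, so reads from the rest may have been shared with other class I genes or left out.

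B2m, the light chain common to class I molecules, fell with them, by less than either heavy chain in premalignant cells and by about as much as H2-D1 in malignant cells. It (ENSMUSG00000060802, chromosome 2, 121973422 to 121978819) was at 1366 and 1134 CPM in wild type, 471 and 502 CPM in premalignant cells and 476 and 558 CPM in malignant cells. Both wild-type libraries were above all EμMyc/+ libraries, and the premalignant and malignant ranges overlapped. The fold change was -1.36 ± 0.17 on the log2 scale in premalignant vs. wild type (adjusted p = 0.00379, edgeR) and -1.27 ± 0.17 in malignant vs. wild type (adjusted p = 0.00254, edgeR). The summed heavy chains H2-K1 and H2-D1 stood to B2m, by RPKM, as 0.572 and 0.823 in wild type, 0.471 and 0.462 in premalignant cells and 0.628 and 0.66 in malignant cells. The premalignant ratios were the lowest, and the wild-type ratios spread widely because B2m was higher in replicate 1 and both heavy chains in replicate 2. With 2 libraries against 2, an exact permutation test cannot give a two-sided p below 0.333, so this and the other ratios are given as values.

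The DNA just upstream of these 3 genes is shown because they were the most abundant of the 9 and fell the most, and that of Tap1 and Psmb8 because these neighbours differed in their response. RefSeq windows of the GRCm38.p6 build were found for 8 of the 10 genes, all but Tap2 and Nlrc5. Each sequence is the 250 bases before the transcription start in the direction of transcription, for H2-K1 at chr17:34000348-34000597 (minus strand, the first of 2 RefSeq starts), H2-D1 at chr17:35262844-35263093 (plus), B2m at chr2:122147437-122147686 (plus), Tap1 at chr17:34187306-34187555 (plus) and Psmb8 at chr17:34197945-34198194 (plus). Capitals mark, on either strand, the interferon-stimulated response element core (GAAA, 2 bases of any kind and GAAA again), the kappa B consensus, the CRE core TGACG that forms part of the X2 box, and the Y box CCAAT.
H2-K1: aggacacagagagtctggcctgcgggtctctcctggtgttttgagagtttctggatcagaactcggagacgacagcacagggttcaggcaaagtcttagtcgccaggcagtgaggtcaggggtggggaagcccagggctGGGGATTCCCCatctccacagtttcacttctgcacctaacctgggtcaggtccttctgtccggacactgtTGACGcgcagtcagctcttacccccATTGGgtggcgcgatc
H2-D1: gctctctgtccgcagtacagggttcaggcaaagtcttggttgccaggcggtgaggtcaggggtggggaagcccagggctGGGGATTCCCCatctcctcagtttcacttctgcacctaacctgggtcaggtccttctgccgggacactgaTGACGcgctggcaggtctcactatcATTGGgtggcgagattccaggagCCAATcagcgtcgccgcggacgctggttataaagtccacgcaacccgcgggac
B2m: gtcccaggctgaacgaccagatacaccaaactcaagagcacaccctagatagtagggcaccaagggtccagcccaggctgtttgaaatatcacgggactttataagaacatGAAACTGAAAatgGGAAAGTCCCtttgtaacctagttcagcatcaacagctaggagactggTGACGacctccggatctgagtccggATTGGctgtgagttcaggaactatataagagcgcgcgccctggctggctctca
Tap1: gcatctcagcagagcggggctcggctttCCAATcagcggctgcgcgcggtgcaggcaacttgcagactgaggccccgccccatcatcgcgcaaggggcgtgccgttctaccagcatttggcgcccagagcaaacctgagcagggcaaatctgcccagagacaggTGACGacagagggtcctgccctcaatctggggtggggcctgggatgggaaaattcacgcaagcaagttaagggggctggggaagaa
Psmb8: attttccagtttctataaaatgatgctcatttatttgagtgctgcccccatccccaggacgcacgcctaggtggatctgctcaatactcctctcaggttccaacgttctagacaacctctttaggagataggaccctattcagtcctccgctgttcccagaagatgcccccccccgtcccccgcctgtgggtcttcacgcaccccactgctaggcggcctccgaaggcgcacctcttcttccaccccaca
H2-K1, H2-D1 and B2m each held a kappa B match, a CRE core and a Y box in this order. In H2-K1 they began at positions -111, -41 and -16 from the start, and in B2m at -126, -78 and -53. In H2-D1 they began at -171, -101 and -76, with another Y box at -53. Counted from its second RefSeq start, H2-K1 also held 2 Y boxes, at -30 and -6. The kappa B stretch of H2-K1 and H2-D1 holds 2 overlapping matches. In all 3 genes the CRE core and the Y box stood in the same orientation with 20 bases between them, a spacing seen in these sequences first and then counted in 0.0913% of the 32851 RefSeq windows, those of 26 genes in all, among them H2-M3. B2m also held the interferon-stimulated response element core, at -139, with its kappa B match 3 bases beyond the end of that core. Only exact matches to the letters of that core were sought. The lack of a match in H2-K1 and H2-D1 thus does not show that they lack a related element. Tap1 held a Y box at -222 and a CRE core at -86 in a region it shares with the divergent Psmb9, and Psmb8 held none of the 4 motifs but 1 match to the GAS motif TTCNNNGAA at -97, which is not in capitals. Tapbp held 2 Y boxes, and Psmb10 held 1 E box, CACGTG. Of all windows, 2.98% held the response element core, 7.25% the kappa B consensus, 17.8% the CRE core, 33.8% the Y box, 7.02% the GAS motif and 6.02% the E box. These matches describe the letters and not binding.

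The peptide transporter and tapasin fell to a lesser degree than the heavy chains. Tap1 (ENSMUSG00000037321), a subunit of the transporter, was at 203 and 205 CPM in wild type, 96.4 and 104 CPM in premalignant cells and 110 and 119 CPM in malignant cells. The wild-type libraries were far above the others. Tap1 was called lower in premalignant (log2 fold change -1.03 ± 0.12, adjusted p = 0.00361, edgeR) and in malignant cells (-0.83 ± 0.12, adjusted p = 0.00366, edgeR), each against wild type. Tap2 (ENSMUSG00000024339), its partner, was at 85.1 and 103, 52.8 and 56.6, and 87.5 and 73.8 CPM. Only the premalignant libraries stood apart, below both other stages, while wild type and malignant overlapped. Tap2 was called lower in premalignant vs. wild type (-0.78 ± 0.16, adjusted p = 0.0163, edgeR) but did not pass in malignant vs. wild type (-0.22 ± 0.16, with a 95% interval from -0.54 to 0.09). The ratio of Tap1 to Tap2 by RPKM was 1.64 and 1.36 in wild type, 1.26 and 1.26 in premalignant cells and 0.868 and 1.11 in malignant cells, lowest in the malignant libraries. Of the exon bases of Tap2, 18.5% lie opposite the exons of Gm15821 and Gm20496, and the library kit does not mark strand, so reads there cannot be told apart. Without either premalignant library the call of Tap2 was lost (log2 fold change -0.73 without replicate 1 and -0.83 without replicate 2).

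Tapbp (ENSMUSG00000024308, chromosome 17, 34052844 to 34066235), which bridges the transporter and the empty class I molecule, was at 166 and 177 CPM in wild type, 88.9 and 96.4 CPM in premalignant cells and 98.6 and 92.3 CPM in malignant cells. Wild type was above both EμMyc/+ stages, which overlapped. Its fold change was -0.89 on the log2 scale, with an SE of 0.13, in premalignant vs. wild type (adjusted p = 0.0055, edgeR) and -0.85 ± 0.13 in malignant vs. wild type (adjusted p = 0.00377, edgeR). Tapbpl, a tapasin-related protein that edits peptides and lies outside the 10 genes, was also called lower, from 42.9 and 45.3 CPM in wild type to 21.3 and 19.3 CPM in premalignant and 24.6 and 27 CPM in malignant cells (log2 fold changes -1.12 ± 0.15 and -0.77 ± 0.15 against wild type).

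**Figure D2:**
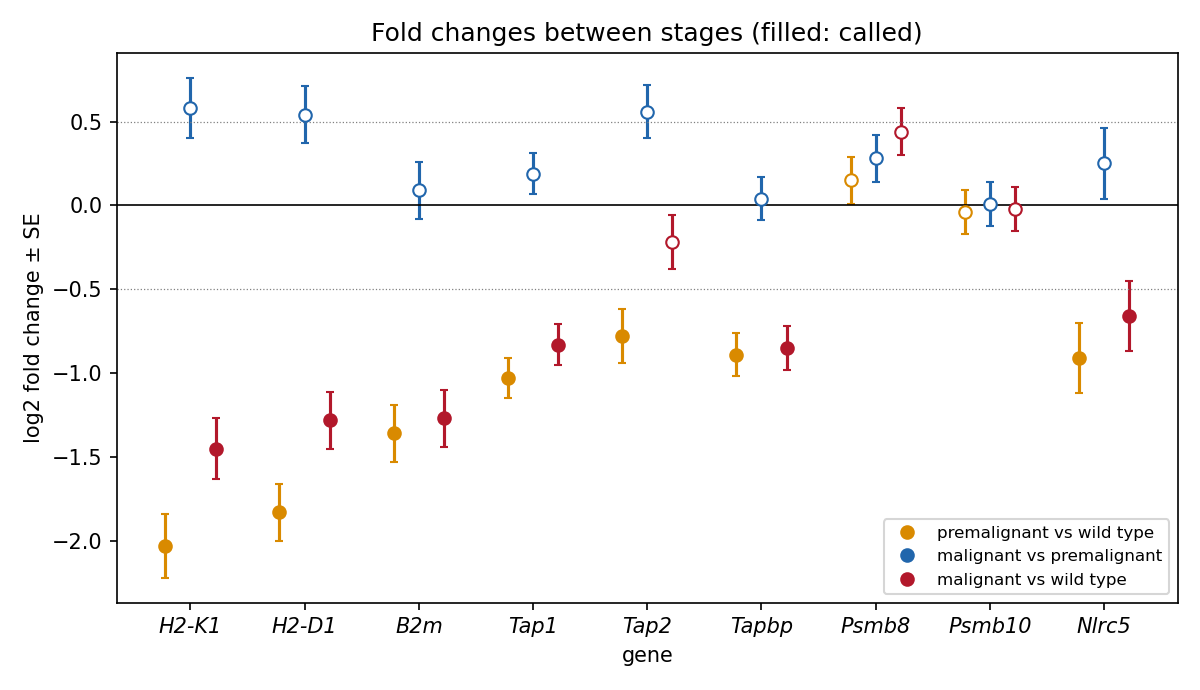
Log2 fold changes with their standard errors for the 9 measured genes in the 3 comparisons, with filled points for genes called and dotted lines at the minimum fold change. Fold changes against wild type lie between -2.03 and -0.66 for the genes called, while those of malignant vs. premalignant cells lie between 0.01 and 0.58 and none is filled.

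Psmb8 and Psmb10, catalytic subunits of the immunoproteasome, were the measured genes not called in any comparison. Psmb8 (ENSMUSG00000024338) was at 142 and 120 CPM in wild type, 148 and 143 CPM in premalignant cells and 189 and 167 CPM in malignant cells. Each stage lay above the one before it without overlap, but the differences were small. The log2 fold change was 0.15 ± 0.14 in premalignant vs. wild type, with a 95% interval from -0.13 to 0.43. In malignant vs. wild type it was 0.44 ± 0.14 (adjusted p = 0.0498, edgeR), under the minimum fold change for a call, and it passed that minimum without wild type replicate 1 (0.57) or without malignant replicate 2 (0.55). Psmb10 (ENSMUSG00000031897, chromosome 8, 108459628 to 108462292) was at 88.8 and 79.7, 84.3 and 79.9, and 85.3 and 80.5 CPM. The 3 stages overlapped, and the 95% interval of its log2 fold change ran from -0.29 to 0.22 for premalignant vs. wild type and from -0.28 to 0.23 for malignant vs. wild type. Psmb9 could not be measured. Its 2 identifiers, ENSMUSG00000024337 and ENSMUSG00000092299, share 3647 exon bases on the same strand, which is 99.7% or more of each, and together had 3 counts or fewer in every library. A read that fits both may have been counted for neither, so these counts are not a level of Psmb9.

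Psmb9, Tap1, Psmb8 and Tap2 lie side by side in the class II region of chromosome 17. On NCBIM37/mm9, Psmb9 spans 34318932 to 34324697 on the minus strand, and Tap1 (34324498 to 34334170), Psmb8 (34334666 to 34338399) and Tap2 (34340472 to 34353266) follow on the plus strand. The end of Tap1 and the start of Psmb8 are 495 bases apart, and 2072 bases separate Psmb8 from Tap2. Psmb8 thus sits between a pair of genes that were called lower in premalignant cells. The ratio of Tap1 to Psmb8 by RPKM was 0.712 and 0.85 in wild type, 0.324 and 0.361 in premalignant cells and 0.292 and 0.355 in malignant cells, with no overlap between wild type and the others. Both values come from the same library, so the ratio does not depend on the scaling of the libraries. The ratio of H2-K1 to Psmb8 went from 8.3 and 11.7 in wild type to 2.08 and 2.27 in premalignant and 2.2 and 3.18 in malignant cells.

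**Figure D3:**
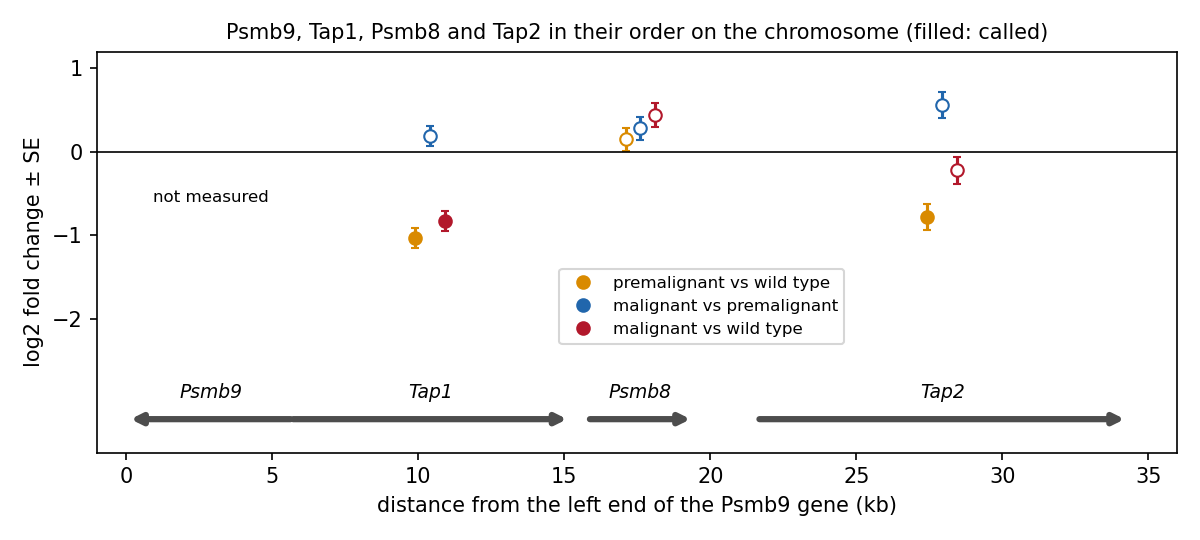
Log2 fold change with its standard error (vertical axis) of Tap1, Psmb8 and Tap2 at their place along the chromosome, in kb from the left end of Psmb9 (horizontal axis), with arrows for the genes and their direction. Psmb8 lies at or above 0 in all 3 comparisons (0.15, 0.28 and 0.44), between Tap1 and Tap2, which were called lower in premalignant cells.

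The balance of inducible to constitutive proteasome subunits differed between wild type and both EμMyc/+ stages. The ratio of Psmb8 to Psmb5, the subunit it replaces, was 0.683 and 0.728 by RPKM in wild type, 0.429 and 0.41 in premalignant cells and 0.392 and 0.392 in malignant cells. The wild-type ratios were above all others, and the premalignant were slightly above the malignant. The ratio of Psmb10 to Psmb7 was 0.757 and 0.816 in wild type, 0.459 and 0.426 in premalignant cells and 0.44 and 0.477 in malignant cells. Here too only wild type stood apart. In both pairs the constitutive subunit was called higher, Psmb5 rising from 70.1 and 55.7 CPM in wild type to 117 and 118 CPM in premalignant cells (log2 fold change 0.90 ± 0.16, adjusted p = 0.0103, edgeR) and Psmb7 from 112 and 93.4 CPM to 175 and 179 CPM (0.79 ± 0.15, adjusted p = 0.0127, edgeR). Psmb6, the counterpart of the unmeasured Psmb9, was at 95.8 and 80.1 CPM in wild type and at 128 and 124 CPM in premalignant cells (0.52 ± 0.14, adjusted p = 0.0386, edgeR). The ratio of the summed PA28 subunits Psme1 and Psme2, an interferon-inducible cap of the proteasome, to the nuclear cap Psme3 took another course, with 2.03 and 1.97 in wild type, 1.13 and 1.04 in premalignant cells and 2.07 and 1.66 in malignant cells. The premalignant libraries were the lowest, and malignant and wild type overlapped. Psme3 rose in premalignant vs. wild type (1.35 ± 0.14, adjusted p = 0.00263, edgeR), and Psme2 rose in malignant vs. premalignant cells (0.74 ± 0.17, adjusted p = 0.0913, edgeR). The call of Psme2 was lost with upper-quartile scaling, with only the 2 stages compared, at an FDR of 0.05 and without any 1 wild-type or premalignant library.

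**Figure D4:**
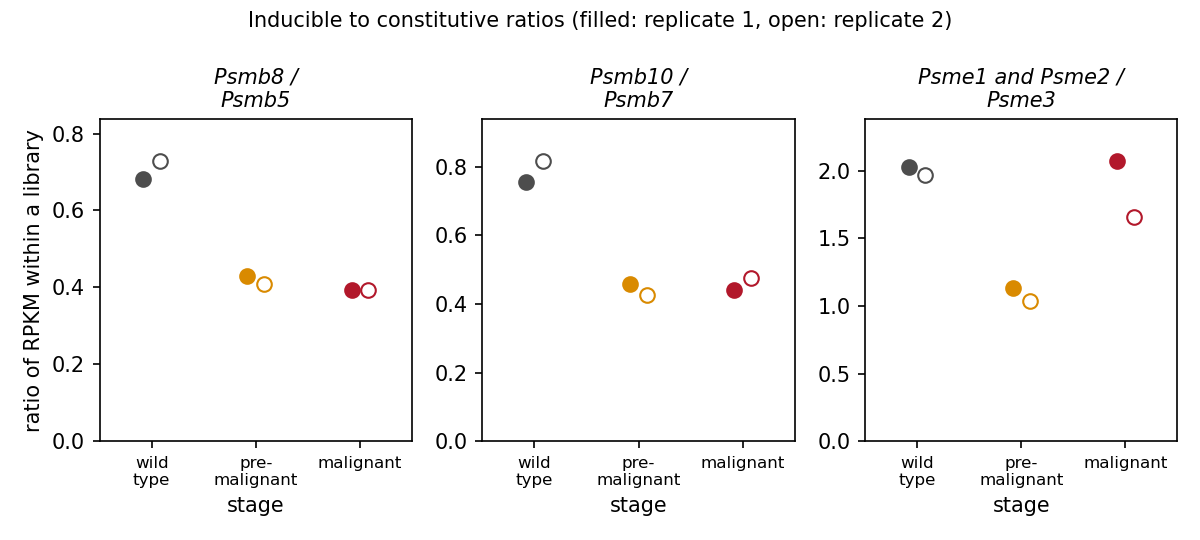
Ratios of RPKM within each library for Psmb8 to Psmb5, Psmb10 to Psmb7 and Psme1 plus Psme2 to Psme3, with filled points for replicate 1 and open points for replicate 2. The first 2 ratios are highest in wild type (0.683 to 0.816) and at most 0.477 elsewhere, while the third is lowest in premalignant cells (1.04 and 1.13).

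Nlrc5, the class I co-activator, was called lower in both EμMyc/+ stages. It (ENSMUSG00000074151, chromosome 8, 96996663 to 97051172, a model that the annotation used here types as lincRNA) was at 106 and 117 CPM in wild type, 59.8 and 59.2 CPM in premalignant cells and 56.9 and 84.8 CPM in malignant cells. Both wild-type libraries were the highest, and the malignant libraries differed from each other by more than the other pairs did. The log2 fold change was -0.91 ± 0.21 in premalignant (adjusted p = 0.0214, edgeR) and -0.66 ± 0.21 in malignant cells (adjusted p = 0.0425, edgeR), each against wild type. These calls rested on few libraries. That for premalignant cells was lost without wild type replicate 2 (-0.84) and without premalignant replicate 1 (-0.91) or 2 (-0.89), and that for malignant cells without wild type replicate 1 (-0.72) or 2 (-0.59) and without malignant replicate 1, where the log2 fold change was -0.39.

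Across the 6 libraries, Nlrc5 went with H2-K1 (Pearson's r of log2 CPM 0.96), H2-D1 (0.95), Tap1 (0.94) and B2m (0.92), less with Tap2 (0.69), and not with Psmb10 (-0.01) or Psmb8 (-0.63). H2-K1 and H2-D1 had an r of 1.00 with each other. The 6 libraries fall into wild type and the rest, and depth follows the replicate number, so these coefficients describe few distinct points. Among 8875 genes with a mean of at least 10 CPM, those most like the mean of the measured members were Itgb2 (r = 0.9993), 4930426D05Rik (0.9972), Stk38l (0.9966), Ptpre (0.9940) and Dmxl1 (0.9932), and those most like Nlrc5 were Evl (0.9974), Adssl1 (0.9962), Endou (0.9949), Psap (0.9942) and Herc3 (0.9939). Itgb2, the beta 2 integrin chain of leukocytes, was at 125 and 132 CPM in wild type, 43.1 and 46 CPM in premalignant cells and 56.9 and 66.6 CPM in malignant cells. Like Nlrc5, Evl differed between the malignant libraries, with 30.4 CPM in replicate 1 and 60.8 CPM in replicate 2.

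From premalignant to malignant cells, the 9 genes had log2 fold changes from 0.01 to 0.58, all above 0, with a median of 0.25 against 0.04 over all genes tested. H2-K1, H2-D1 and Tap2 had the largest values. H2-K1 had 0.58 ± 0.18 (adjusted p = 0.159, edgeR, 95% interval 0.22 to 0.93), H2-D1 0.54 ± 0.17 (adjusted p = 0.156, edgeR, 0.21 to 0.87) and Tap2 0.56 ± 0.16 (adjusted p = 0.139, edgeR, 0.24 to 0.88). For each of the 3, both malignant libraries were above both premalignant libraries. The share of all genes so separated was not computed. All 3 genes passed with DESeq2 and with no filter on low counts, where the adjusted p lay between 0.0346 and 0.0793. Both settings also called more of all genes than the main fit. Without malignant replicate 1, H2-K1 (0.74), H2-D1 (0.67) and Nlrc5 (0.51) passed, and without malignant replicate 2 only Tap2 did (0.64). Psmb8 had 0.28 ± 0.14, Tap1 0.19 ± 0.12 and Nlrc5 0.25 ± 0.21, while B2m, Tapbp and Psmb10 were within 0.09 of 0.

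The other class I and class I-like heavy chains, of which 17 were tested, fell with H2-K1 and H2-D1. In premalignant vs. wild type 15 were called lower and none higher, with a median log2 fold change of -1.80, and in malignant vs. wild type 14 were lower and none higher, with a median of -2.02. Over all genes tested, 20.3% and 24.3% were called lower in these 2 comparisons. Among those with at least 10 CPM in the higher stage, the largest falls were those of non-classical H2-Q genes in both comparisons. H2-Q7 was at 311 and 325 CPM in wild type, 8.29 and 8.77 CPM in premalignant cells and 32 and 15.3 CPM in malignant cells. Against wild type this gave a log2 fold change of -5.22 ± 0.38 in premalignant (adjusted p = 0.00159, edgeR) and -3.74 ± 0.35 in malignant cells (adjusted p = 0.00102, edgeR). It was called higher in malignant than in premalignant cells (1.48 ± 0.33, adjusted p = 0.0818, edgeR), the only call among the 17 in that comparison, which was lost with only the 2 stages compared, at an FDR of 0.05 and without any 1 wild-type or premalignant library. DESeq2 called 3 of the 17 higher and 2 lower there, and leaving out malignant replicate 1 or 2 gave 3 and 5 higher and 2 and 3 lower. H2-Q6 was at 253 and 324, 5.34 and 5.21, and 64.5 and 9.43 CPM, with malignant replicate 1 far above replicate 2. H2-Q8 was at 80.2 and 118, 5.11 and 4.82, and 15.7 and 8.78 CPM. H2-M3, which presents formylated peptides, was at 42.9 and 41.6 CPM in wild type, 12.2 and 12.1 CPM in premalignant cells and 14.4 and 14.2 CPM in malignant cells, and H2-T23, the Qa-1 heavy chain, was at 188 and 216, 82.8 and 84.7, and 91.3 and 100 CPM. The H2-Q genes are near-identical copies of each other, and how reads were divided between them is uncertain.

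Among other loading and trimming genes, more were called higher than lower. Of 13, 4 were called higher and 1 lower in premalignant cells (median 0.48), and 8 higher and 1 lower in malignant cells (median 0.85), each against wild type. The shares over all genes tested were 19% higher and 20.3% lower in premalignant cells, and 24.9% and 24.3% in malignant cells. Canx, the chaperone that holds free heavy chains, rose from 282 and 249 CPM in wild type to 606 and 683 CPM in premalignant cells (log2 fold change 1.28 ± 0.16, adjusted p = 0.00397, edgeR) and was at 547 and 646 CPM in malignant cells. Erap1, which trims peptides in the endoplasmic reticulum, rose from 100 and 92.4 CPM to 139 and 159 CPM (0.63 ± 0.14, adjusted p = 0.0208, edgeR) and was at 196 and 173 CPM in malignant cells. Calr and Pdia3, partners of tapasin in the loading complex, had log2 fold changes of 0.68 ± 0.29 and 0.80 ± 0.33 in premalignant vs. wild type and did not pass. Psme1 was at 136 and 126, 189 and 178, and 367 and 240 CPM and was called higher in malignant vs. wild type (1.21 ± 0.21, adjusted p = 0.00649, edgeR). In the standard proteasome, 13 of 14 genes of the 20S core and 16 of 18 genes of the 19S particle were called higher in premalignant vs. wild type, with medians of 0.78 and 0.67, and 12 and 13 in malignant vs. wild type, with medians of 0.91 and 0.81. No gene of either list was called lower. Psma7 of the core rose by 1.22 ± 0.13 and Psmd7 of the 19S particle by 1.32 ± 0.14 on the log2 scale in premalignant cells. Without a premalignant library the counts in premalignant vs. wild type dropped to 7 and 5 for the core and 8 and 4 for the 19S particle, and to 8 and 8 without wild type replicate 2. For loading and trimming genes called higher, the count there was 2 without wild type replicate 2 or without either premalignant library, and 7 without malignant replicate 2.

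Factors that act at class I promoters changed in part. Of 17, 6 were called lower and 1 higher in premalignant cells and likewise 6 and 1 in malignant cells, each against wild type, with medians of -0.21 and -0.33. Over all genes tested, 20.3% were called lower and 19% higher in the premalignant stage, and 24.3% and 24.9% in the malignant stage. Irf1, the interferon-induced activator of class I genes, fell from 123 and 129 CPM in wild type to 38.4 and 37 CPM in premalignant and 30 and 27.9 CPM in malignant cells (log2 fold changes -1.74 ± 0.13, adjusted p = 0.00173, and -2.12 ± 0.13, adjusted p = 0.000545, edgeR). Irf2 had -0.45 ± 0.14 (adjusted p = 0.0519, edgeR) in premalignant cells, under the minimum fold change. Irf8, an interferon regulatory factor of B and myeloid cells, was at 478 and 397 CPM in wild type, 266 and 178 CPM in premalignant cells and 98.9 and 164 CPM in malignant cells, and the acetyltransferase Kat2b was at 63.9 and 56.4, 28.8 and 21.3, and 20.5 and 22.7 CPM. Rfx5, a subunit of the RFX complex at the X box, was at 48.6 and 57.8, 52.8 and 51.1, and 34.2 and 41.9 CPM and did not pass against wild type, nor did the Y-box subunits Nfya, Nfyb and Nfyc. Rfxank, another RFX subunit, was at 32.2 and 37.1, 22.7 and 22.3, and 20.5 and 16.6 CPM and was called lower than wild type in both stages (-0.62 ± 0.18, adjusted p = 0.0447, and -0.90 ± 0.18, adjusted p = 0.0101, edgeR). Ciita, the class II co-activator and a relative of Nlrc5, went the other way. It was at 29.9 and 28.4 CPM in wild type, 82.2 and 89.8 CPM in premalignant cells and 36.9 and 148 CPM in malignant cells, with log2 fold changes of 1.56 ± 0.57 (adjusted p = 0.0842, edgeR) and 1.66 ± 0.57 (adjusted p = 0.0586, edgeR) against wild type. The malignant libraries of Ciita differed more from each other than replicate 1 did from wild type. Without either premalignant library 2 of these factors were called lower in premalignant vs. wild type and none higher, and the call of Ciita was also lost there without either wild-type library. In malignant vs. wild type, Ciita was not called without wild type replicate 2 or malignant replicate 2.

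Interferon receptors and signalling genes, and interferon-stimulated genes outside class I, fell with the heavy chains. For comparison, 20.3% of all genes tested were called lower in premalignant vs. wild type and 24.3% in malignant vs. wild type. Of 14 receptor and signalling genes, 13 were called lower and none higher in premalignant vs. wild type (median -1.09), and 11 lower and 1, the phosphatase Ptpn2, higher in malignant vs. wild type (median -0.88). Ptpn2 was not called without either wild-type library or without malignant replicate 2. Socs1, a feedback inhibitor, was at 29.6 and 31, 6.63 and 4.4, and 4.71 and 5.99 CPM, and Usp18, another, at 16.4 and 11.9, 1.98 and 1.33, and 0.565 and 0.717 CPM. The receptor chain Ifngr1 was called higher in malignant than in premalignant cells (0.80 ± 0.15, adjusted p = 0.0568, edgeR), a call lost with only the 2 stages compared, at an FDR of 0.05 and without any 1 wild-type or premalignant library. Of 30 interferon-stimulated genes, 27 were called lower and none higher in premalignant vs. wild type (median -2.19), and 27 lower and 1 higher in malignant vs. wild type (median -2.07). Oasl2 fell by 3.63 ± 0.48 and Rsad2 by 3.08 ± 0.77 on the log2 scale in premalignant cells, while Gbp3 was the gene called higher in malignant cells, at 20.6 and 64.5 CPM against 20.4 and 16.4 CPM in wild type, a call that was lost with RLE or upper-quartile scaling, with at least 10 counts in every library, with the replicate block, with only the 2 stages compared, at an FDR of 0.05 and without any 1 library other than malignant replicate 1. From premalignant to malignant cells, 5 of the 30 were called lower and 1, Gbp7, higher, against 2.45% of all genes called lower and 3.73% called higher. None of the 30 was called in either direction with only the 2 stages compared. Which of them were called also changed when 1 library was left out. Without premalignant replicate 1 or 2, the number called lower in premalignant vs. wild type dropped to 14 and 11 for the interferon-stimulated genes and to 6 and 7 for the receptor and signalling genes. Markers of granulocytes and of monocytes, macrophages and dendritic cells, given above, were lower in the same libraries, and their part in these counts was not tested.

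**Figure D5:**
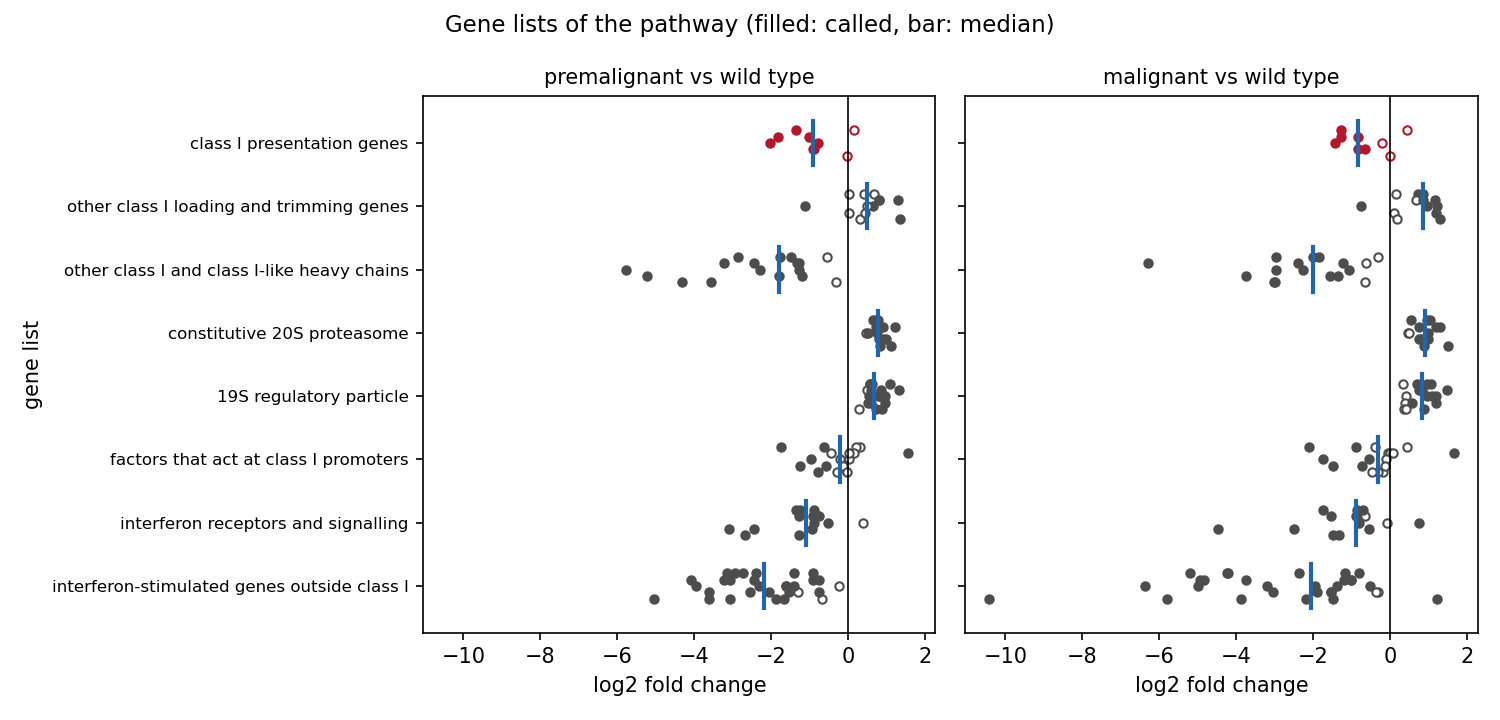
Log2 fold changes of the tested genes of each list (horizontal axis) in premalignant vs. wild type (left) and malignant vs. wild type (right), with filled points for genes called and a bar at the median of the list. Heavy chains, interferon signalling genes and interferon-stimulated genes lie mostly below 0 (medians from -2.19 to -0.88), while the 20S and 19S proteasome genes lie above 0 (medians from 0.67 to 0.91).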

How the data were processed

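Pre-B cells of 3 stages were sequenced, with 2 libraries per stage. The authors used TopHat to align 50-base single-end reads and HTSeq to count them on Ensembl genes, and the deposited values are these raw counts. Per the labels, base calling used CASAVA 1.8.2 and the genome build was mm9. HTSeq's options are not given in the sources used here. Deposited tables of the authors' own comparisons hold stage means, fold changes and p-values and were not used. Stages and replicate numbers came from the labels. Since only the number is shared between stages, the libraries were not treated as pairs.

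Symbols, positions and exon lengths were taken from GENCODE vM1 on NCBIM37 (37205 of 37991 identifiers had a symbol). All 6 libraries were fitted together with edgeR 4.0.16 in R 4.3.3, with TMM scaling, the default filter on low counts and the quasi-likelihood test, and p-values were adjusted by Benjamini-Hochberg over all 16683 genes tested. Standard errors were derived from the F statistic, and 95% intervals from the standard error with the multiplier of a normal distribution. With 2 libraries per stage these intervals are approximate and narrower than the edgeR test implies. The thresholds are those of the study's methods. The study used DEseq, for which DESeq2 1.42.0 was an alternative, beside other scalings, filters and thresholds, the replicate block, only the 2 stages compared and leaving out each library. The fit was tested on simulated data. RPKM was computed from TMM-scaled CPM and exon lengths. Detection was set at 3 counts or more, which is 0.0526 to 0.108 CPM depending on the library and covers counting error only. With no spike-in used here, TMM scaling cannot show a change in total cellular RNA.

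Named genes were the 10 members, 15 partners and regulators (1 of which is not reported here), up to 2 called genes per list, comparison and direction with at least 10 CPM in the higher of both stages, and the 5 genes most like the members' mean and Nlrc5. H2-M3, H2-T23, Rfxank and the Y-box subunits were named after their values were seen. The members and lists were chosen with earlier results of these data known. Where a symbol of a list had 2 identifiers, as for Ciita, the one with more counts was used. The study names individual animals as its biological replicates.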

Additional observations from a re-analysis of the deposited data

How the results depend on the processing

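Against wild type, the number of class I presentation genes called changed only with a minimum log2 fold change of 1 by more than 1.5 times, to 4 in premalignant and 3 in malignant cells. Leaving out 1 library gave 5 to 7 for either stage. In malignant vs. premalignant cells, where edgeR called none, DESeq2 and a fit with no filter on low counts each called 3, and leaving out 1 library gave 0 to 3. In fits that leave out a library, the lone library of a stage is assumed to vary like the other stages. Direction changed only for genes that were not called. Psmb10 changed sign in premalignant vs. wild type with only the 2 stages compared (0.02) and without 1 library (-0.11 to 0.05), in malignant vs. wild type without 1 library (-0.10 to 0.06), and in malignant vs. premalignant cells with RLE scaling (-0.01), upper-quartile scaling (-0.07), DESeq2 (-0.01), at least 10 counts in every library (-0.01), only the 2 stages compared (-0.00039) and without 1 library (-0.03 to 0.05). In that comparison Tapbp changed sign with upper-quartile scaling (-0.04), and without 1 library Tapbp ranged from -0.02 to 0.10, B2m from -0.06 to 0.20 and Nlrc5 from -0.10 to 0.51. The cause was not tested.

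The replicate numbers come from the labels alone, and libraries of the same number deviated together with correlations of 0.509, 0.186 and 0.257. Entering the replicate number as a block left 7, 0 and 6 genes called, as without the block. Over all genes, 1031 were called in malignant vs. premalignant cells, against 2169 with DESeq2, 2810 with no filter, 258 with only the 2 stages compared and 407 at an FDR of 0.05. That count was 244 and 239 without wild type replicate 1 or 2, 2668 and 3805 without malignant replicate 1 or 2, and 0 by edgeR without either premalignant library, where 1472 and 1777 genes had an unadjusted p under 0.05. In premalignant vs. wild type, 6563 were called, 4282 at a minimum log2 fold change of 1 and 2094 to 8455 without 1 library. Upper-quartile scaling moved the median of all genes from -0.02 to -0.19 in malignant vs. wild type. Of the lists in premalignant vs. wild type, loading and trimming genes called higher were 7 with DESeq2 or only the 2 stages compared, and a minimum log2 fold change of 1 left 2 each of the 20S and 19S genes and 7 of the interferon signalling genes.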

Other observations

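B2m is the transcript to which the study's qRT-PCR was normalized, according to its methods. In these counts B2m was lower than in wild type by 2.57-fold in premalignant and by 2.42-fold in malignant cells, so a transcript with the same CPM in all stages would stand that much higher relative to B2m. The study also reported the rise of rRNA in premalignant over wild-type cells by FISH, which does not rest on B2m. Its methods add that the qRT-PCR assay had earlier been checked in Eμ-Myc cells against metabolic labeling of newly made rRNA. Between malignant and premalignant cells the log2 fold change of B2m was 0.09 ± 0.17, and the libraries overlapped.

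The 2 malignant libraries differed from each other in several genes around the class I pathway, and not in 1 direction. Replicate 2 was the higher in Ciita (148 against 36.9 CPM), Gbp3 (64.5 against 20.6 CPM), Gbp2 (12.8 against 2.57 CPM) and Nlrc5 (84.8 against 56.9 CPM). Replicate 1 was the higher in H2-Q6 (64.5 against 9.43 CPM), H2-Q7 (32 against 15.3 CPM) and Psme1 (367 against 240 CPM). These genes were picked after their values were seen, and the cause was not tested.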
